A study of Homo sapiens with 8 samples.

Results

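The HOXB cluster is one of the 4 human HOX gene clusters and holds 10 protein-coding homeobox genes, HOXB1 to HOXB9 and HOXB13. The 10 genes were taken by symbol from the table that names the array's rows, all 10 were measured, and they make up 10 of the 19426 genes named on the array. Together they had 96 array rows, of which 63 passed the filter on dim signal. An array row is one probe set of an Affymetrix exon array, which usually reads part of 1 exon. Expression was measured in NTera2/D1 cells, an established human embryonal carcinoma line whose cells leave their stem-cell-like state in retinoic acid (RA). The labels give 4 groups of 2 arrays, biological duplicates numbered GF117 and GF120. The first group had siRNF20, a small interfering RNA against RNF20, and 10 µM RA for 72 h, and the second had siRNF20 and DMSO, the solvent. The third had siLacZ, a control against a bacterial gene, and 10 µM RA for 72 h, and the fourth had siLacZ and DMSO. All groups are 1 cell line and all carry a small interfering RNA, so the series holds no untransfected cells, and RNF20 was lowered, not deleted.

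HOX genes encode transcription factors that give cells their position along the head-to-tail axis. Within a cluster they lie in the order in which they act: the low-numbered genes at the 3′ end act first and furthest forward, in the hindbrain, and the high-numbered genes at the 5′ end act later and further back. RA binds nuclear receptors near the 3′ ends of the HOXA and HOXB clusters, and in embryonal carcinoma cells the clusters are known to respond to it from the 3′ end onward. RNF20 and its partner RNF40 form the ligase that puts one ubiquitin on histone H2B, a mark laid down on transcribed genes. The comparisons below follow the cluster from HOXB1 to HOXB13 and ask which members RA raised at 72 h, with RNF20 lowered and with it present.

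The promoter of HOXB1, the gene at the end of the cluster that responds first, is shown because no other member had one in the RefSeq table used. It comes from RefSeq (GRCh38.p14, chr17:48530962-48531261, minus strand) and spans 250 bases before to 50 bases after the gene's start, printed 5′ to 3′. Capitals mark the letters of a SOX factor site, those of an OCT factor site next to it and, downstream, those of a joint site for PBX and HOX proteins.

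HOXB1: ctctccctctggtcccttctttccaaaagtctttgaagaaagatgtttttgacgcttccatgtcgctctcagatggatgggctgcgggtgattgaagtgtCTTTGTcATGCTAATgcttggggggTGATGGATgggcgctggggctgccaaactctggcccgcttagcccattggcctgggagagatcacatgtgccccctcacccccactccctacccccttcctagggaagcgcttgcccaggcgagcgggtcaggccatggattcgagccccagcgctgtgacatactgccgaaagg

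In the mouse, a region before Hoxb1 with PBX-HOX sites and a SOX-OCT site is known to keep the gene on in rhombomere 4, the hindbrain segment that HOXB1 defines. Both strands were searched, and the motifs were chosen after the sequence had been seen. The PBX-HOX letters TGATNNAT occur once, starting at -125 from the gene's start, and are held by 7.42% of 34796 promoters of the same length. The OCT letters ATGCNAAT start at -143 and are held by 2.96% of promoters, and the SOX letters CTTTGT start at -150 and are held by 16.1%. None of these matches overlaps another. The letters AGGTCA, the half-site that retinoid receptors bind, are not in this window and occur in 13.8% of promoters. A match describes the letters and shows no binding, and the window holds 11 CpG dinucleotides, against a median of 14 over all promoters.

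One array, labelled RA and siLacZ and numbered GF117, was unlike the rest. The Pearson correlation of its gene values with those of any other array was 0.14 to 0.24, while the remaining 7 had correlations of 0.91 to 0.97 among themselves. RNF20, the check of the knockdown, read 6.27 and 5.89 on the log2 intensity scale in RA-treated siRNF20 cells and 6.48 and 5.98 in DMSO-treated siRNF20 cells. In siLacZ cells it read 8.10 with RA on the GF120 array and 8.24 and 8.09 with DMSO. On the array that was unlike the rest it read 6.08, among the siRNF20 values. Against the GF117 DMSO array of siLacZ cells, 35.6% of all rows there were at least 4-fold lower and 8.94% at least 4-fold higher. The RNF20 value of the array unlike the rest therefore cannot show whether RNF20 was lowered. That array was left out of the comparisons, so RA-treated siLacZ cells are represented by 1 array, whose spread is taken from the other groups. Changes are given as differences in log2 intensity, RA minus DMSO or siRNF20 minus siLacZ. Every adjusted p is limma's over all 18732 genes tested, and a gene was called where it lay below 0.05. With all 8 arrays limma called 0 genes in every comparison, HOXB members included, with 504 genes at an unadjusted p under 0.05 for RA in siRNF20 cells and 1510 for RA in siLacZ cells. The level of a gene depends on its probes, so levels are compared between arrays and never between genes. In a mixed culture more cells expressing a gene and more RNA per cell cannot be told apart.

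RA raised the first 3 genes of the cluster, HOXB1, HOXB2 and HOXB3, in siRNF20 cells and in siLacZ cells. In siRNF20 cells HOXB1 was 15.7-fold, HOXB2 25.9-fold and HOXB3 3.07-fold higher with RA, and in siLacZ cells 11.2-fold, 25.1-fold and 4.0-fold higher. These folds are of gene medians, and the sizes for HOXB1 and HOXB2 are not well resolved, for reasons given below. HOXB13, at the far end, rose 3.66-fold in siRNF20 cells, and the genes between, HOXB4 to HOXB9, were not called in either. Thus 4 of 10 members were called higher in siRNF20 cells and 3 of 10 in siLacZ cells, where 1.79% and 1.88% of all genes were, and no member was called lower, where 2.13% and 2.03% of genes were. With the GF number as a block, that is with a term for it in the fit, the counts were 4 of 10 and 5 of 10, HOXB5 and HOXB13 being added in siLacZ cells, beside 4.12% and 4.65% of all genes called higher and 6.34% and 4.92% called lower. The median change over the 10 members was 0.44 in siRNF20 cells and 1.02 in siLacZ cells, against -0.03 and -0.05 over all genes.

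HOXB1, which specifies the hindbrain segment that gives rise to the facial nerve's motor neurons, read 8.58 and 8.68 with RA in siRNF20 cells, against 4.59 and 4.72 with DMSO. With siLacZ it read 8.29 in RA, against 5.12 and 4.47 with DMSO. Every RA array lay far above every DMSO array, and the RA arrays of both knockdowns were close together. A gene's value is the median of its rows past the dim filter, and for HOXB1 it fell on different rows. In siRNF20 cells it fell on row 3761287 with RA, and on rows 3761286 and 3761284 with DMSO. Row 3761287 itself changed by 0.63 there, so the change below compares unlike rows, which its SE does not cover. Over the 6 HOXB1 rows the median RA change was 3.10 in siRNF20 cells and 3.83 in siLacZ cells. The RA change was 3.98 (SE 0.25, n = 2 and 2, adjusted p = 5.0e-05) in siRNF20 cells. In siLacZ cells it was 3.49 (SE 0.31, n = 1 and 2, adjusted p = 0.000349). With all 8 arrays the changes were 3.98 and 3.54, with adjusted p = 0.202 and 0.131. The size in siRNF20 cells depended on the summary: it was 2.75 with the mean over rows, 2.97 with the stricter dim filter and 3.19 with 16 added before the logarithm, and it was called in each.

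HOXB2, which acts beside HOXB1 in the hindbrain and which HOXB1 is known to activate, had the largest response of the cluster. It read 9.12 and 9.18 with RA in siRNF20 cells, against 3.86 and 5.06 with DMSO. The siLacZ array with RA read 9.05, against 4.10 and 4.69 with DMSO. The RA arrays of both knockdowns lay close together, while the DMSO arrays spread from 3.86 to 5.06. These DMSO values lie near the dim filter (log2 3.97), so the size of the change is not well resolved. The change was 4.70 (SE 0.36, adjusted p = 0.000142) in siRNF20 cells and 4.65 (SE 0.45, adjusted p = 0.000565) in siLacZ cells. With all 8 arrays the changes were 4.70 and 3.85, with adjusted p = 0.207 and 0.282. The change in siRNF20 cells was 4.09 without the GF117 DMSO array and 5.30 without the GF120 DMSO array. With 16 added before the logarithm it was 3.86 in both knockdowns.

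HOXB3, active in the caudal hindbrain, responded less. It read 6.21 and 5.97 with RA in siRNF20 cells, against 4.39 and 4.54 with DMSO. The RA array of siLacZ cells read 6.71, against 4.82 and 4.61 with DMSO. The groups did not overlap, and both RA arrays of siRNF20 cells lay below the RA array of siLacZ cells. The change was 1.62 (SE 0.25, adjusted p = 0.00614) in siRNF20 cells and 2.0 (SE 0.31, adjusted p = 0.00679) in siLacZ cells. With all 8 arrays the adjusted p was 0.418 and 0.193. With rows below the upper quartile left out as dim, the change in siRNF20 cells was 0.71 and was not called (adjusted p = 0.116).

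**Figure D1:**
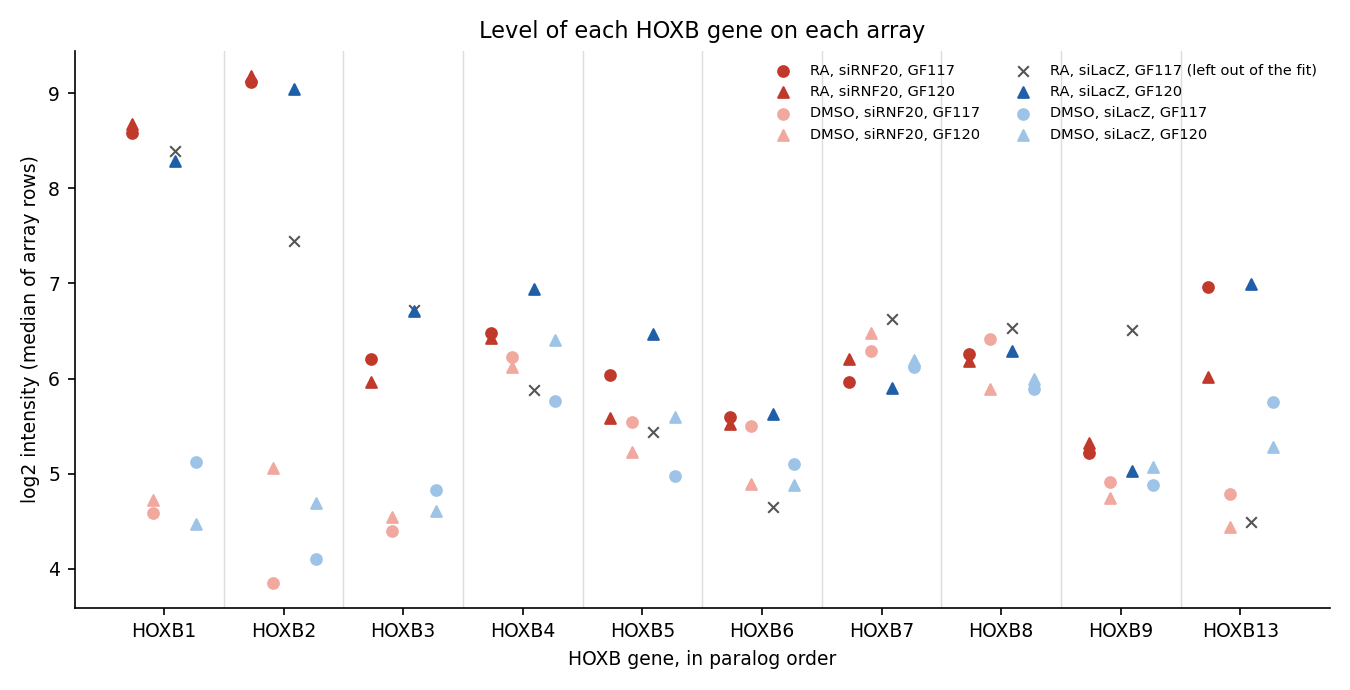
Level of each HOXB gene on each array (y axis, log2 intensity, median of the gene's array rows), in paralog order along the x axis. Red marks are siRNF20 arrays and blue marks siLacZ arrays, dark with RA and pale with DMSO, circles GF117 and triangles GF120, and the cross is the array left out. For HOXB1, HOXB2 and HOXB3 all RA marks lie above all DMSO marks. HOXB2 is at 9.05 to 9.18 with RA on the fitted arrays and at 7.44 on the array left out.

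HOXB4, studied as a gene that expands blood stem cells, was not called in either knockdown. It read 6.48 and 6.43 with RA in siRNF20 cells, against 6.23 and 6.13 with DMSO. For siLacZ cells the value with RA was 6.94, against 5.76 and 6.41 with DMSO. Although each RA array lay above each DMSO array, the gap between the nearest arrays was small. The difference was 0.28 (SE 0.25, adjusted p = 0.714) in siRNF20 cells and 0.85 (SE 0.30, adjusted p = 0.190) in siLacZ cells. The summary of HOXB4 rests on 5 of its 10 rows, since the other 5 were dim. With every row kept it read 4.93 and 4.32 with RA in siRNF20 cells, against 3.60 and 4.14 with DMSO. On the same basis it read 6.17 with RA in siLacZ cells, against 3.28 and 3.35 with DMSO. With all 10 rows HOXB4 was thus called higher with RA in siLacZ cells (2.85, SE 0.39, adjusted p = 0.00739) and not in siRNF20 cells (0.76, SE 0.32, adjusted p = 0.316). The difference between these responses was -2.09 (SE 0.51) and was not called (adjusted p = 1.0).

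HOXB5, which takes part in the development of the enteric nervous system, read 6.04 and 5.58 with RA in siRNF20 cells, against 5.54 and 5.23 with DMSO. In siLacZ cells it read 6.47 with RA, against 4.97 and 5.60 with DMSO. One RA array of siRNF20 cells lay below the higher DMSO array of siLacZ cells, so the groups overlapped. The difference was 0.43 (SE 0.29, adjusted p = 0.587) in siRNF20 cells and 1.19 (SE 0.36, adjusted p = 0.118) in siLacZ cells. Without the GF120 array of RA-treated siRNF20 cells, which is no part of this contrast but enters its spread, the siLacZ difference was called (1.19, adjusted p = 0.0303), as it was with the GF number as a block (1.21, adjusted p = 0.0463).

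HOXB6, HOXB7, HOXB8 and HOXB9 act in the trunk, and none was called with RA. HOXB6 read 5.60 and 5.52 with RA in siRNF20 cells against 5.50 and 4.89 with DMSO, and 5.62 with RA in siLacZ cells against 5.10 and 4.88 with DMSO. Its RA arrays lay above all DMSO arrays, by little, and the differences were 0.36 (SE 0.28) and 0.63 (SE 0.34). HOXB7 read 5.97 and 6.20 with RA in siRNF20 cells against 6.29 and 6.48 with DMSO, and 5.90 with RA in siLacZ cells against 6.12 and 6.19 with DMSO. It was the one member with a negative difference in both knockdowns, -0.30 (SE 0.21) and -0.25 (SE 0.26), and its groups overlapped. HOXB8 read 6.26 and 6.19 with RA in siRNF20 cells against 6.41 and 5.90 with DMSO. In siLacZ cells HOXB8 read 6.29 with RA against 5.90 and 6.0 with DMSO. The HOXB8 differences were 0.07 (SE 0.24) and 0.34 (SE 0.29), and the groups overlapped. HOXB9, which patterns the ribs, read 5.22 and 5.33 with RA in siRNF20 cells against 4.91 and 4.74 with DMSO, and 5.03 with RA in siLacZ cells against 4.88 and 5.07 with DMSO. Its differences were 0.45 (SE 0.26) and 0.06 (SE 0.32). The adjusted p of these 4 genes lay between 0.420 and 0.964. The 95% intervals do not reach a 4-fold change in any of the 4 genes, the widest running to 1.40 for HOXB6 in siLacZ cells. They cover the median of rows past the dim filter and, in siLacZ cells, rest on 1 RA array. Among rows that the filter leaves out, 1 of HOXB6, 1 of HOXB7 and 3 of HOXB9 passed 4-fold in siLacZ cells.

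HOXB13, which lies apart from the rest of the cluster and is best known from the prostate and the tail end of the spinal cord, was called higher with RA in siRNF20 cells, past the uncalled HOXB4 to HOXB9. It read 6.96 and 6.01 with RA in siRNF20 cells, against 4.79 and 4.44 with DMSO. With siLacZ the value in RA was 6.99, against 5.75 and 5.28 with DMSO. All RA arrays lay above all DMSO arrays, and both DMSO arrays of siRNF20 cells lay below both DMSO arrays of siLacZ cells. The change was 1.87 (SE 0.33, adjusted p = 0.0138) in siRNF20 cells. In siLacZ cells the difference was 1.48 (SE 0.41, adjusted p = 0.0916). The call in siRNF20 cells was lost without the GF117 array with RA (1.40, adjusted p = 0.0572) and without the GF120 array with DMSO (1.70, adjusted p = 0.0798). With all 8 arrays its adjusted p was 1.0, and the array left out read 4.49, below all the DMSO values of siLacZ cells. In siLacZ cells HOXB13 was called when only the arrays compared were fitted (1.48, adjusted p = 0.0219). It was also called there without the GF117 or the GF120 array of RA-treated siRNF20 cells (adjusted p = 0.0334 and 0.0310), and with the GF number as a block (1.77, adjusted p = 0.00178).

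**Figure D2:**
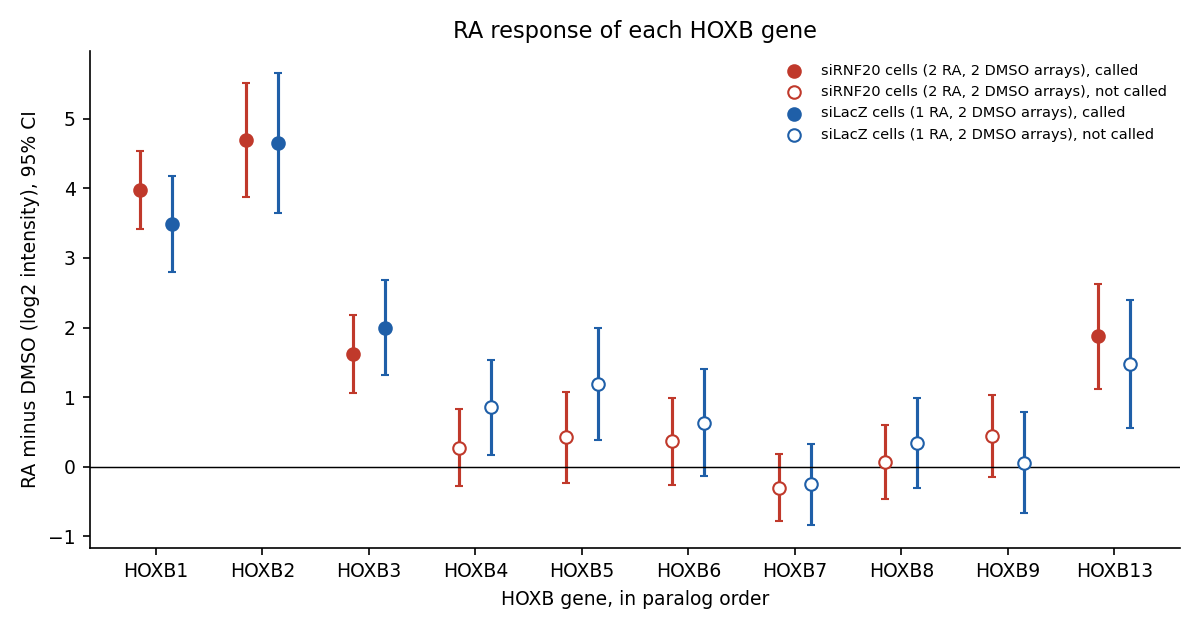
RA change of each HOXB gene (y axis, RA minus DMSO in log2 intensity) in siRNF20 cells (red, left of each pair) and siLacZ cells (blue, right), with 95% confidence intervals from the fit. Filled points were called; HOXB1 (3.98 and 3.49), HOXB2 (4.70 and 4.65) and HOXB3 (1.62 and 2.0) are filled in both, and HOXB13 in siRNF20 cells alone, in the fit with no block.

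In 6 members, HOXB1, HOXB2, HOXB3, HOXB4, HOXB6 and HOXB13, every RA array lay above every DMSO array, as in 8.07% of all genes, and no member had every RA array below, as did 12.6% of genes. Within the GF117 arrays of siRNF20 cells the RA differences of HOXB1, HOXB2, HOXB3 and HOXB13 were 3.99, 5.27, 1.81 and 2.17. Within the GF120 arrays they were 3.96, 4.12, 1.43 and 1.57 in siRNF20 cells, and 3.82, 4.35, 2.11 and 1.71 in siLacZ cells. Over the 9 genes from HOXB1 to HOXB9, which share the same arrays, the RA change and the paralog number had a Spearman correlation of -0.67 in siRNF20 cells and -0.92 in siLacZ cells. The order was not strict, since HOXB2 exceeded HOXB1, HOXB5 exceeded HOXB4, and HOXB8 and HOXB9 exceeded HOXB7 in both. In siRNF20 cells HOXB9, at 0.45, exceeded every gene from HOXB4 to HOXB8, and none of these was called.

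The response of the first 3 genes was seen in some of their array rows and not in others. The rows of a gene share the same RNA and are not replicates. In HOXB1 the row 3761285 read 11.51 and 11.10 with RA in siRNF20 cells against 8.15 and 7.01 with DMSO, and 12.04 with RA in siLacZ cells against 8.16 and 7.58 with DMSO. In HOXB2 the row 3761297 read 9.92 and 9.83 with RA in siRNF20 cells against 2.76 and 3.54 with DMSO, and 9.79 with RA in siLacZ cells against 3.69 and 4.75 with DMSO. In HOXB3 the row 3761314 read 7.28 and 7.12 with RA in siRNF20 cells against 4.04 and 3.80 with DMSO, and 8.65 with RA in siLacZ cells against 4.14 and 4.74 with DMSO. In each of these rows the RA arrays lay above the DMSO arrays of both knockdowns. Other rows of the same genes stayed level: in HOXB3 the row 3761318 stayed between 12.42 and 12.64 on all 7 arrays, and in HOXB2 the row 3761306 stayed between 9.0 and 9.71.

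Tested over all 354600 rows, 9 HOXB rows were called higher with RA in siRNF20 cells and 7 in siLacZ cells, where 0.294% and 0.234% of all rows were. In siRNF20 cells they were 3 of HOXB1, 4 of HOXB2 and 2 of HOXB3. In 4 of the 9 both DMSO arrays read at or below the dim filter (log2 3.97), so the size of their change is not resolved, and the other changes ran from 3.28 to 5.34. In siLacZ cells they were 2 of HOXB1, 3 of HOXB2, 1 of HOXB3 and 1 of HOXB4. Of these 1 had both DMSO arrays at or below the filter, and the other changes ran from 4.17 to 6.05. No HOXB row was called lower, where 0.212% and 0.155% of rows were. These calls rest on few arrays: with any 1 array left out 0 rows were called in siLacZ cells and 0 to 9 in siRNF20 cells.

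Counted by size alone, 14 of the 30 rows of HOXB1 to HOXB3 were at least 4-fold higher with RA in siRNF20 cells and 17 of 30 in siLacZ cells. Over all rows the share was 0.883% and 1.6%. In HOXB13 it was 3 of 10 rows in each. Between them, from HOXB4 to HOXB9, it was 1 of 56 rows in siRNF20 cells and 12 of 56 in siLacZ cells. Most of these rows were dim: of the 31 rows from HOXB4 to HOXB9 past the dim filter, 0 were at least 4-fold higher in siRNF20 cells and 2 in siLacZ cells, beside 0.742% and 1.14% of all rows past it, so 10 of the 12 are rows that the gene summaries leave out. No HOXB row was at least 4-fold lower with RA in either, against 0.653% and 1.39% of all rows. The siLacZ count rests on 1 RA array, and 1 array against 2 gives more large differences over all rows, as those shares show. Within the GF120 arrays, 1 against 1 in both knockdowns, the counts were 0 of 56 and 12 of 56, beside 1.42% and 2.45% of all rows, and none was at least 4-fold lower, beside 1.44% and 1.63%. Within the GF117 arrays of siRNF20 cells 3 of 56 were higher and 1 lower, beside 1.96% and 1.52%. The array left out had 12 of 56 rows higher than its GF117 DMSO array, and 4 lower, beside 8.94% and 35.6% of all its rows. The 12 were in part other rows, with 0 of HOXB5 and 1 of HOXB8, against 2 and 0 within the GF120 arrays of siLacZ cells. The difference between the RA responses was called for 0 of all rows, HOXB rows included.

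**Figure D3:**
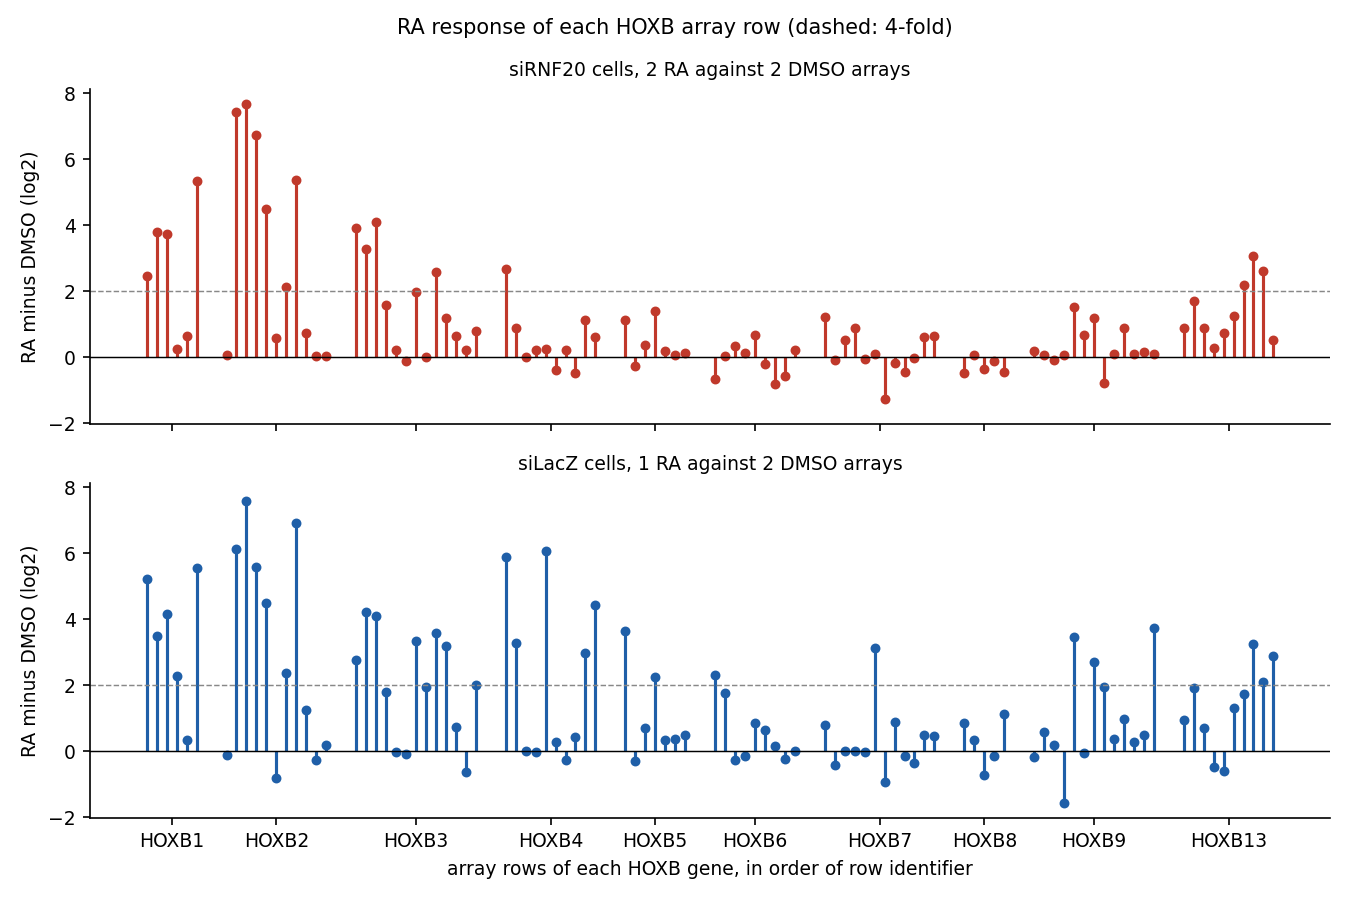
RA change of each of the 96 HOXB array rows (y axis, RA minus DMSO in log2 intensity), in siRNF20 cells (upper panel) and siLacZ cells (lower panel), ordered by gene and by row identifier along the x axis, with a dashed line at 4-fold. Tall stems fill HOXB1 to HOXB3 in both panels, and from HOXB4 to HOXB9 1 of 56 stems passes the line in the upper panel and 12 of 56 in the lower, of which 10 are dim rows.

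HOXB4 had 5 of the 12 rows past 4-fold in siLacZ cells, HOXB9 3, HOXB5 2, and HOXB6 and HOXB7 1 each. The 2 that passed the dim filter were 3761353 of HOXB4 and 3761379 of HOXB5. The HOXB4 row 3761353 read 4.15 and 4.41 with RA in siRNF20 cells, against 3.35 and 4.74 with DMSO. In siLacZ cells it read 10.05 with RA, against 4.22 and 3.78 with DMSO, and 6.41 on the array left out. Thus the siLacZ array with RA stood above the other arrays, and with 6.05 (SE 0.70, adjusted p = 0.0383) it was the HOXB4 row called. For this row the RA response of siRNF20 cells minus that of siLacZ cells was -5.82 (SE 0.90) and was not called (adjusted p = 1.0). The HOXB4 row 3761349 read 5.56 and 2.49 with RA in siRNF20 cells against 1.61 and 1.11 with DMSO, and 7.61 with RA in siLacZ cells against 1.37 and 2.07 with DMSO. Here the RA arrays of siRNF20 cells lay far apart. The HOXB5 row 3761379 read 6.14 and 5.20 with RA in siRNF20 cells against 4.99 and 4.11 with DMSO, and 8.07 with RA in siLacZ cells against 3.96 and 4.89 with DMSO. The HOXB9 row 3761472 read 2.85 and 1.66 with RA in siRNF20 cells against 2.69 and 1.61 with DMSO, and 5.89 with RA in siLacZ cells against 2.56 and 1.78 with DMSO. On the array left out these 2 rows read 5.03 and 2.05, close to the DMSO values.

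In HOXB13 the 3 rows past 4-fold in siRNF20 cells, 3761542, 3761543 and 3761545, were neighbours in the order of row identifiers. The row 3761543 read 6.96 and 6.0 with RA in siRNF20 cells against 3.60 and 3.21 with DMSO, and 7.11 with RA in siLacZ cells against 5.13 and 2.60 with DMSO. The row 3761545 read 7.57 and 6.65 with RA in siRNF20 cells against 4.90 and 4.11 with DMSO, and 7.65 with RA in siLacZ cells against 5.75 and 5.38 with DMSO. In all 3 rows each RA array lay above each DMSO array, and none of them was called over all rows.

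**Figure D4:**
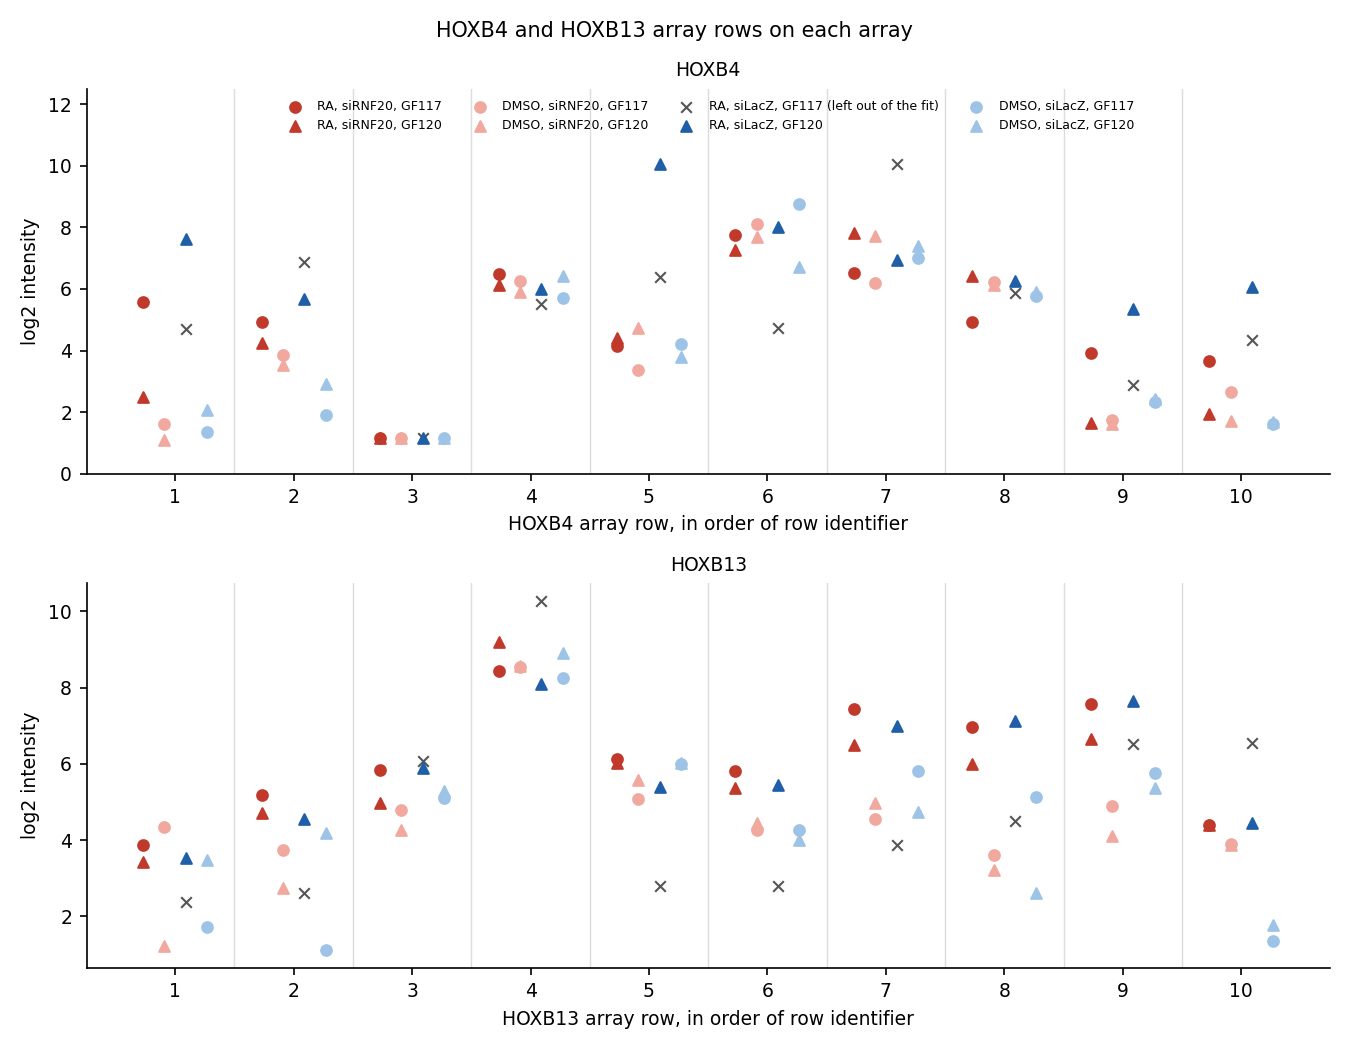
Log2 intensity (y axis) of the 10 array rows of HOXB4 (upper panel) and the 10 of HOXB13 (lower panel) on each array, with the marks of the plot of gene levels. In HOXB4 the GF120 siLacZ array with RA stands above every other array of the comparisons in row 5 (10.05), row 1 (7.61) and row 10 (6.06), and in HOXB13 all RA arrays of the comparisons lie above the DMSO arrays in rows 7 to 9.

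No HOXB member was called between siRNF20 and siLacZ cells. RNF20 itself was not called in this fit either, at -2.02 in RA (adjusted p = 0.110) and -1.94 in DMSO (adjusted p = 0.237), so a change near 4-fold could go uncalled. With the GF number as a block RNF20 was called in both (-2.19, adjusted p = 0.00287, and -1.94, adjusted p = 0.00152) and no HOXB member was, where 0.865% of all genes were called higher and 0.374% lower in RA, and 0% and 0.00534% in DMSO. In RA-treated cells the differences, siRNF20 minus siLacZ, ran from -0.66 (HOXB5) to 0.34 (HOXB1), where 0.0107% of all genes were called. The lowest were HOXB5 at -0.66 (95% interval -1.46 to 0.14), HOXB3 at -0.63 (-1.31 to 0.06), HOXB13 at -0.50 (-1.42 to 0.42) and HOXB4 at -0.48 (-1.16 to 0.20). The positive HOXB1 value compares gene medians that fell on different rows. Over the 6 HOXB1 rows the median difference was -0.70, and 1 row was higher. The siLacZ array with RA lay above both siRNF20 arrays with RA for HOXB3, HOXB4, HOXB5, HOXB6, HOXB8 and HOXB13, as it did for 33.9% of all genes. Of the 96 HOXB rows 10 were at least 4-fold lower with siRNF20 in RA, 4 of HOXB4, 4 of HOXB9 and 1 each of HOXB5 and HOXB6, and none was at least 4-fold higher, beside 0.678% and 0.851% of all rows. Of these 10 rows 8 were dim, all 4 of HOXB9 among them, and 2 passed the dim filter, beside 0.187% of all rows past it. That filter tends to drop rows high on the RA siLacZ array alone, so the split is no even comparison. None of the 10 was called. In DMSO-treated cells the differences ran from -0.90 (HOXB13) to 0.23 (HOXB7), and 0% of genes were called, with 519 at an unadjusted p under 0.05. HOXB13 was the member whose 95% interval there excluded 0 (-1.65 to -0.15, adjusted p = 1.0).

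The RA response of siRNF20 cells minus that of siLacZ cells was not called for any member, nor for any of the 18732 genes (0%, with 737 at an unadjusted p under 0.05). With the GF number as a block no member was called, and 0.0107% of genes were in each direction. For HOXB1 the difference was 0.49 (95% interval -0.40 to 1.37) and for HOXB2 0.05 (-1.24 to 1.34). It was -0.38 (-1.26 to 0.51) for HOXB3, -0.58 (-1.46 to 0.30) for HOXB4 and -0.76 (-1.79 to 0.28) for HOXB5. For the remaining members it lay between -0.28 (HOXB8) and 0.40 (HOXB13). Over the 6 HOXB1 rows the median of this difference was -0.33, with 2 rows higher, so its sign in HOXB1 depended on the summary. The intervals for HOXB2, HOXB3, HOXB4, HOXB5, HOXB6 and HOXB8 leave room for a response more than 2-fold weaker in siRNF20 cells, and those for HOXB1, HOXB2, HOXB9 and HOXB13 for one more than 2-fold stronger. Within the GF120 arrays, 1 against 1, the differences were -0.68 for HOXB3, -0.23 for HOXB4, -0.52 for HOXB5, 0.14 for HOXB1 and -0.23 for HOXB2.

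The paralogs of the called members in the other clusters also rose at positions 1 to 3 and did not at position 13. HOXD1 rose by 1.87 in siRNF20 cells and 2.02 in siLacZ cells. HOXA2 rose by 5.06 and 5.68, HOXA3 by 3.64 and 3.73, and HOXD3 by 4.01 and 4.41. HOXB3 rose by less than either of its paralogs HOXA3 and HOXD3, a difference between genes that was not tested. At position 4, HOXC4 rose by 2.91 in both and HOXD4 by 2.45 and 3.36. HOXA4 differed by 0.25 and 0.32, and like HOXB4 it was not called. Further along, HOXA5 rose by 5.79 and 4.73 and HOXD8 by 2.41 and 2.79, while HOXB5 and HOXB8 were not called. At position 13, HOXD13 fell by 0.97 in siRNF20 cells (adjusted p = 0.0139) and differed by -0.71 in siLacZ cells (adjusted p = 0.116), where the block called it (-0.69, adjusted p = 0.0459). HOXA13 and HOXC13 differed by -0.22 and -0.40 in siRNF20 cells and by -0.10 and -0.56 in siLacZ cells, and were not called. Over the clusters, 3 of 10 HOXA, 1 of 7 HOXC and 4 of 9 HOXD genes were called higher in each knockdown, against the 1.79% and 1.88% of all genes given above. In siRNF20 cells 2 of 9 HOXD genes were called lower, HOXD13 and HOXD11, which fell by 1.46 (adjusted p = 0.0175). The block added HOXD10 as lower in siRNF20 cells (-1.56, adjusted p = 0.000316), and HOXA7 (1.62, adjusted p = 0.0294) and HOXD9 (0.85, adjusted p = 0.0323) as higher in siLacZ cells. HOX genes are alike in sequence, so some of their probes may share signal.

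Across the 7 arrays the members fell into like patterns, given as Pearson correlations of log2 levels with no test, since all genes share the arrays and the RA effect. HOXB1, HOXB2 and HOXB3 correlated at 0.95 to 0.98 with one another, and HOXB4 and HOXB5 at 0.96. HOXB13 correlated best with HOXB3 (0.925), and HOXB7 correlated negatively with every other member, down to -0.95 with HOXB13. Among the 26 measured HOX genes of the other clusters, the nearest to HOXB1 was HOXC4 (0.998), to HOXB2 HOXA3 (0.996), to HOXB3 HOXA2 (0.980) and to HOXB13 HOXA5 (0.904). HOXD8 was nearest to HOXB4 (0.816), HOXB5 (0.845) and HOXB9 (0.761), HOXD9 to HOXB6 (0.955) and HOXB8 (0.832), and HOXD12 to HOXB7 (0.783). Over all genes, those most like the mean of the 10 members were HOXD3 (0.999), SEMA3C (0.999), PKNOX2 (0.997), LOC100129455 (0.997) and DLC1 (0.997).

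HOX proteins bind DNA together with cofactors of the PBX, MEIS and PKNOX families. Of 10 cofactor genes measured 3 rose with RA and none fell, in each knockdown. MEIS2 rose by 5.24 in siRNF20 cells and 4.99 in siLacZ cells, MEIS1 by 2.42 and 2.95, and PKNOX2 by 1.84 and 2.06. No PBX gene was called.

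Of 19 genes for retinoid receptors, retinoid metabolism and direct RA targets 10 rose in siRNF20 cells and 8 in siLacZ cells, and none fell. RARB, a receptor that RA induces itself, rose by 6.46 and 5.55. CYP26A1, an enzyme that degrades RA, rose by 4.77 and 4.59, and its relative CYP26B1 by 2.02 and 3.72. With siRNF20 in RA, CYP26B1 differed by -1.95, uncalled, and by -2.22 with the block, which called it lower. CRABP2, which carries RA to the receptors, rose by 3.17 and 2.33, and DHRS3, which turns the RA precursor back towards retinol, by 2.13 and 2.60. With the block 10 rose in each knockdown, RARA and CRABP1 being added in siLacZ cells. This list was drawn up with earlier results of these data known, so its direction is no independent evidence.

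Of 9 regulators known to pattern the hindbrain alongside HOXB genes, GBX2, a regulator of the anterior hindbrain, rose by 1.20 in siRNF20 cells. OTX2, which marks the regions in front of the hindbrain, fell by 1.37 in siRNF20 cells and by 2.99 in siLacZ cells. With siRNF20 in RA, OTX2 differed by 1.32, uncalled, and by 1.38 with the block, which called it higher. EPHA4, a receptor at the borders of hindbrain segments, fell by 1.19 in siLacZ cells. Of 21 Polycomb and trithorax genes, whose products keep HOX clusters silent or active, none was called in siRNF20 cells and DPY30 fell by 0.75 in siLacZ cells. With the block RING1 and KDM6B rose in siRNF20 cells, RING1, EZH1 and BMI1 rose and JARID2 fell too in siLacZ cells, EPHA4 fell in siRNF20 cells (-0.82) and GBX2 rose in siLacZ cells (0.79). Of 16 genes of H2B ubiquitylation, USP44, which removes ubiquitin from H2B, fell by 1.11 in siRNF20 cells and 1.22 in siLacZ cells.

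Of the 17 neighbouring genes measured none was called in either RA comparison, and their differences ran from -0.86 to 0.47 in siRNF20 cells and from -0.38 to 1.36 in siLacZ cells. PRAC2 (1.36, SE 0.52) and PRAC1 (1.18, SE 0.37), a pair of genes between HOXB9 and HOXB13, were the highest of them in siLacZ cells, with adjusted p = 0.227 and 0.134, and the block called PRAC1 there (1.27, adjusted p = 0.0460). In siRNF20 cells they differed by 0.20 and -0.46, and the difference between the responses was -1.16 and -1.65 (adjusted p = 1.0 and 0.936). The 8 transcripts of the cluster without a HOX protein, among them HOXB-AS1, HOXB-AS3, MIR10A and MIR196A1, had no row of their own among those named by 1 symbol. The sources used here do not say whether the signal was read by strand, so a HOXB gene and an overlapping antisense transcript cannot be told apart.

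Embryonal carcinoma markers averaged 9.64 to 9.79 on the log2 scale in DMSO, and they moved with RA alongside the HOXB genes. Of 9 such markers 6 fell in each knockdown, among them NANOG and POU5F1. NANOG fell by 2.76 in siRNF20 cells and fell by 3.82 in siLacZ cells, and POU5F1 fell by 2.46 and fell by 1.83. Their summed intensity was 7037 to 7715 with RA against 10278 to 10525 with DMSO in siRNF20 cells, and 5103 with RA against 9820 to 10180 with DMSO in siLacZ cells. Of 6 neural progenitor markers 2 rose in siRNF20 cells and 3 in siLacZ cells, led by PAX6 (3.08 and 3.54). Their summed intensity was 1381 to 1394 against 743 to 816 in siRNF20 cells, and 1589 against 808 to 857 in siLacZ cells. Of 5 trophoblast markers 2 rose in siRNF20 cells and 1 in siLacZ cells, of 6 mesenchymal markers 0 and 2 rose and 1 fell in each, and of 5 endoderm markers none was called. The summed trophoblast intensity was 578 to 601 with RA against 375 to 385 with DMSO in siRNF20 cells, and 458 with RA against 433 to 482 with DMSO in siLacZ cells. With the block 7 embryonal carcinoma markers fell in siLacZ cells, 4 neural progenitor markers rose and 2 mesenchymal markers fell in siRNF20 cells, and NANOG, SOX2 and CRIPTO were called higher with siRNF20 in RA. The part of these shifts in the HOXB values was not tested.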

How the data were processed

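Total RNA of 8 NTera2/D1 samples was biotin-labelled by the array maker's standard method, per the labels' protocols. The deposited table gives linear intensity values, 1 per array row and array; the authors' background correction and normalization are not given in the sources used here. Of 1384231 rows, 354600 carry 1 gene symbol; symbols were updated to current ones. Values were taken to log2 with no further scaling. Rows with a mean at or below the median of all rows (log2 3.97) were left out, and a gene's value is the median of its other rows, for 18732 genes. limma 3.58.1 (R 4.3.3, data.table, version 1.17.8) fitted the 4 group means to 7 arrays with an intensity trend, and p-values were adjusted by Benjamini-Hochberg, two-sided. The scripts were tested on simulated data. Figures used matplotlib 3.10.9 (Python 3.11.15).

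The labels give biological duplicates and no depth exists for arrays, so their number limits precision. No row coordinates are printed, since no build is stated for the array. The meaning of the GF numbers is not labelled, so the fit has no block. The deviations of same-numbered arrays from their group means correlated at 0.297 to 0.364. This held in all 3 pairs of groups with 2 arrays, so same-numbered arrays vary together. Calls that changed with the GF number as a block are given, in part as counts or with no value. The 10 members and all gene lists were chosen with earlier results of these data known, and the RA siLacZ array numbered GF117 was left out because earlier results of these data had shown it apart. Named genes are all members, RNF20, up to 4 called members of each list with the largest changes, same-number paralogs of called members, and the genes of most similar pattern. HOXA4, HOXC4, HOXD4, HOXA5 and HOXD8 outside that rule, single rows, PRAC1 and PRAC2 were chosen after their values were seen. Only HOXB1 of the members had a promoter in the RefSeq table used. Alternatives were all 8 arrays, each array left out, the GF number as a block, only the arrays compared, 16 added before the logarithm, quantile normalization, no trend, 2 other filters and the mean over rows. Genes named only from the fit with the block, and HOXD11, were chosen after their values were seen. Counts of rows within GF120 and of rows past the dim filter were added after the data had been seen.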

Additional observations from a re-analysis of the deposited data

Results flagged for a closer look

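The array left out of the comparisons, labelled RA and siLacZ and numbered GF117, read 6 of the 10 members above every DMSO array of both knockdowns. It read 8.40 for HOXB1, against 4.47 to 5.12 on the DMSO arrays of siLacZ cells, 7.44 for HOXB2, against 4.10 to 4.69, and 6.72 for HOXB3, against 4.61 to 4.82. It also read 6.63 for HOXB7, 6.53 for HOXB8 and 6.51 for HOXB9, against highest DMSO values of 6.48, 6.41 and 5.07, although none of these was called with RA. Over all genes 26.1% lay above every DMSO array on that array. The GF120 array of the same label read 8.29, 9.05 and 6.71 for HOXB1, HOXB2 and HOXB3. The fit of all 8 arrays called no member.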

How the results depend on the processing

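With 2 arrays a group at most, and 1 for RA in siLacZ cells, precision is low, and the calls hold only without the GF117 RA siLacZ array. With all 8 arrays 0 members and 0 rows were called in any comparison, and the median of all genes moved to -0.49 for RA in siLacZ cells. HOXB1 and HOXB2 were called in both RA comparisons under every other alternative run, and so was HOXB3 except with the stricter dim filter in siRNF20 cells. Leaving out each array gave 3 to 4 members called for RA in siRNF20 cells and 3 to 5 in siLacZ cells, with 0 in the other comparisons, and 0 to 9 rows called in siRNF20 cells and 0 each time in siLacZ cells. Without the siLacZ RA array no contrast with that group could be fitted. The number of rows called was 0 in both RA comparisons with only the arrays compared and with no trend, and in siLacZ cells it was 16 with 16 added before the logarithm. The causes were not tested. HOXB4 was called in siLacZ cells with the mean over rows too (1.29, adjusted p = 0.0381).

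With the GF number as a replicate block, 4 members were called for RA in siRNF20 cells and 5 in siLacZ cells, HOXB5 (1.21, adjusted p = 0.0463) and HOXB13 (1.77, adjusted p = 0.00178) being added. It changed no other call of a member. The block gave 10 and 9 rows and, over all genes, 1959 and 1792 calls, and 4 for the difference between responses, none of them HOXB. Counted after the data had been seen on rows past the dim filter alone, rows at least 4-fold higher from HOXB4 to HOXB9 were 0 in siRNF20 and 2 in siLacZ cells. That filter tends to drop rows high on the RA siLacZ array alone.

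Signs turned for uncalled values only. For RA in siRNF20 cells HOXB4 was -0.075 with 16 added, -0.12 with 8 arrays, -0.047 with the mean over rows and -0.12 with the arrays compared, where HOXB5 was -0.17. HOXB8 was -0.14 with the mean, -0.37 with no filter and -0.027 with the stricter one, and HOXB6 -0.64 with no filter. For RA in siLacZ cells HOXB7 was 0.11 with 8 arrays, 0.36 with no filter and 0.88 with the stricter one, and HOXB8 -0.18 with the mean and -0.55 with no filter. For siRNF20 in RA cells, 8 arrays gave HOXB6 0.42, HOXB7 -0.18, HOXB9 -0.50 and HOXB13 0.75. The mean gave HOXB1 -0.45, HOXB7 -0.085, HOXB8 0.35 and HOXB9 -0.0018. No filter gave HOXB7 -0.22, HOXB8 0.43, HOXB9 -0.79 and HOXB13 0.17. The stricter filter gave HOXB1 -0.16, HOXB4 0.068, HOXB7 -0.86, HOXB8 0.24 and HOXB9 -0.080. The arrays compared gave HOXB9 -0.27 and HOXB13 0.18. For siRNF20 in DMSO cells HOXB5 was -0.016 with the mean. No filter gave HOXB2 -0.38, HOXB5 -0.36 and HOXB9 0.028, and the stricter filter HOXB3 0.15, HOXB6 -0.010 and HOXB9 0.16. HOXB3 was 0.57 with the arrays compared. For the difference between responses HOXB6 was 0.22 and HOXB9 -0.35 with 8 arrays, HOXB1 -0.42 and HOXB8 0.034 with the mean, and HOXB7 0.035 with the block. No filter gave HOXB8 0.18 and HOXB9 -0.81, and the stricter filter HOXB2 -0.26 and HOXB9 -0.24.

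With each array left out, signs also turned within these ranges. RA in siRNF20 cells ran from -0.12 to 0.33 for HOXB4, -0.17 to 0.58 for HOXB5 and -0.19 to 0.33 for HOXB8, and RA in siLacZ cells from -0.038 to 0.15 for HOXB9. For siRNF20 in DMSO cells the range was -0.36 to 0.036 for HOXB1, -0.54 to 0.66 for HOXB2, -0.48 to 0.16 for HOXB3, -0.049 to 0.38 for HOXB4, -0.21 to 0.26 for HOXB5, -0.10 to 0.51 for HOXB6 and -0.052 to 0.47 for HOXB8. For the difference between responses it was -0.55 to 0.65 for HOXB2, -0.57 to 0.032 for HOXB6, -0.17 to 0.071 for HOXB7 and -0.076 to 0.87 for HOXB13.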
